A study of Mus musculus with 27 samples.

Results

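Fcγ receptors bind the Fc part of IgG antibodies, and their expression in epididymal adipose tissue (EAT) was followed here through 9 genes chosen by symbol: the activating receptors Fcgr1, Fcgr3 and Fcgr4, the inhibitory receptor Fcgr2b, the signalling chain Fcer1g, the kinases Syk and Lyn, and the exchange factors Vav1 and Vav3. Of these, 8 had a probe set annotated to that gene alone and were measured, among 18193 genes in all. Lyn had no such probe set in the annotation used and was not analysed here. RNA of the EAT of 27 male C57BL/6J mice was read on 1 array per mouse, 9 mice on each diet. The mice arrived at 5 weeks of age, ate a standard diet for 1 week and were then kept 3 per cage for 18 weeks on a Western diet containing 0.05% quercetin, on the Western diet alone, or on the AIN93G control diet. The Western diet, a model of diet-induced obesity, took 39.9% of its energy from fat and 34.0% from sucrose and held 0.15% cholesterol. Which mice shared a cage is not given, so p-values measure the spread between single mice and take cage mates as independent. Where cage mates are alike, these p-values are too small. The labels name EAT as the tissue, although their extraction text speaks of liver, and the 8 measured adipocyte markers were high on all arrays (mean log2 signal between 12.3 and 12.8).

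Macrophages and other myeloid cells use these receptors to take up particles coated with IgG and to start inflammatory signalling. An activating receptor passes its signal through the paired Fcer1g chains, whose tyrosine motifs (ITAMs) are phosphorylated by Src family kinases such as Lyn and then dock the kinase Syk. Syk acts on adaptors, lipid enzymes and the Vav exchange factors, which load small GTPases that drive actin during phagocytosis. Fcgr2b carries an inhibitory motif instead and recruits the lipid phosphatase SHIP1, which dampens the same pathway, so the balance of activating and inhibitory receptors sets how strongly a cell responds to immune complexes. In obese visceral fat, macrophages are the main cells known to carry them.

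The promoters of the 3 activating receptors and of the inhibitory receptor are shown because these genes differed in their response to the Western diet. They come from RefSeq on GRCm38.p6, 250 bases before to 50 bases after a transcript start, 5′ to 3′ on the gene's strand. For Fcgr3 this start lies inside the gene, whose span on chromosome 1 is 171051169 to 171065915. Capitals mark TTCCTC or GAGGAA, the purine-rich core bound by the myeloid factor PU.1 (encoded by Spi1).
Fcgr1, chr3:96293920-96294219, minus strand: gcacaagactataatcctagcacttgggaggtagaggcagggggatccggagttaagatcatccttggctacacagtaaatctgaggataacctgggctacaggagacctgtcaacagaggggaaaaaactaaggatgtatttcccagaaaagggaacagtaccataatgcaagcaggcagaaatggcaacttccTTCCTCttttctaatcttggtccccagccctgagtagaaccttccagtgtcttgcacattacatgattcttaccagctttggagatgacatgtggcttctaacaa
Fcgr3, chr1:171059354-171059653, minus strand: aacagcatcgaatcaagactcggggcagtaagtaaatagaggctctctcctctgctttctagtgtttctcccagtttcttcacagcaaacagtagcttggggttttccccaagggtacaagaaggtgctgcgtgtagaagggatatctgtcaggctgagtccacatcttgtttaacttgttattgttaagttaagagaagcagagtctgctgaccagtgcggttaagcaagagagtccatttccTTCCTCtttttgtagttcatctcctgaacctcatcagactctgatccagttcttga
Fcgr4, chr1:171018676-171018975, plus strand: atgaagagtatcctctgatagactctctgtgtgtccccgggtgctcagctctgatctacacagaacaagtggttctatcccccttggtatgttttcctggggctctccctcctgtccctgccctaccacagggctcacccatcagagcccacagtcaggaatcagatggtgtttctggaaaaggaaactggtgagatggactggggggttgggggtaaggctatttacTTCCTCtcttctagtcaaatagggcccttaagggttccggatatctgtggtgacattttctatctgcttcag
Fcgr2b, chr1:170976022-170976321, minus strand: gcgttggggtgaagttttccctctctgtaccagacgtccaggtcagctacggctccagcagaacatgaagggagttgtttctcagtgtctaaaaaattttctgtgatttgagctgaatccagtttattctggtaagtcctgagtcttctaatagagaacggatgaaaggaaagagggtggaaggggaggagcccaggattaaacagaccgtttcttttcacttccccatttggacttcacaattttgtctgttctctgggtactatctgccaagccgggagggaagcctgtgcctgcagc
Each of the 3 activating receptors had TTCCTC shortly before the transcript start used, at -55 to -50 in Fcgr1, at -6 to -1 in the Fcgr3 promoter shown and at -22 to -17 in Fcgr4. It was not found in this window of Fcgr2b, on either strand. GAGGAA on either strand is common, being present in 28.3% of the 32851 promoters of the reference. All 8 measured genes had promoters in the reference, 12 in total, of which 6 held GAGGAA (in Fcgr1, Fcgr3, Fcgr4, Syk and Vav1). A match describes the letters only. The 2 Fcgr3 promoters of the reference overlap. Fcgr2b, Fcgr4, Fcgr3 and Fcer1g lie near each other on chromosome 1, between 170960558 and 171234349.

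Signals were normalized between arrays by quantiles and are given as log2 values, so that 1 unit is a doubling. Some arrays carried transcripts of neighbouring tissues. The mean log2 signal of the testis and epididymis list stood more than 2 above the median of all arrays on quercetin replicates 3 and 5, Western diet replicate 7 and control replicates 6 and 9. The smooth muscle list did so on control replicates 2 and 4, and the B cell list on control replicate 3. Liver markers stood apart in the same way on 3 quercetin arrays, 4 Western diet arrays and 2 control arrays, with the highest mean, 11.93, on Western diet replicate 4, and 10.97 on Western diet replicate 6. Leaving out the 8 arrays with other tissue markers kept 7 quercetin, 8 Western diet and 4 control arrays, leaving out the 9 with liver markers kept 6, 5 and 7, and leaving out both kinds kept 5, 4 and 3. The control probes for RNA integrity differed with diet, the 3′ signal of actin exceeding the 5′ signal by 1.16 ± 0.17 log2 units with quercetin, 0.81 ± 0.09 on the Western diet and 1.05 ± 0.23 on the control diet (SD, n = 9 each), and its part in the results below was not tested.

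The Western diet raised every measured gene of the set. By the probe sets used for the genes, the activating receptors rose far more than the inhibitory one. By limma with Benjamini-Hochberg adjustment over all genes, 8 of 8 were higher in Western diet mice than in control mice at an adjusted p under 0.05, where 11.3% of all genes tested were called higher. The median log2 fold change was 1.34 over the 8 genes and about 0 over all genes. In whole tissue, more (or fewer) cells of a type and more (or less) RNA per cell cannot be told apart. The 8 genes are often made by the same cells, so their count is not 8 separate observations.

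**Figure D1:**
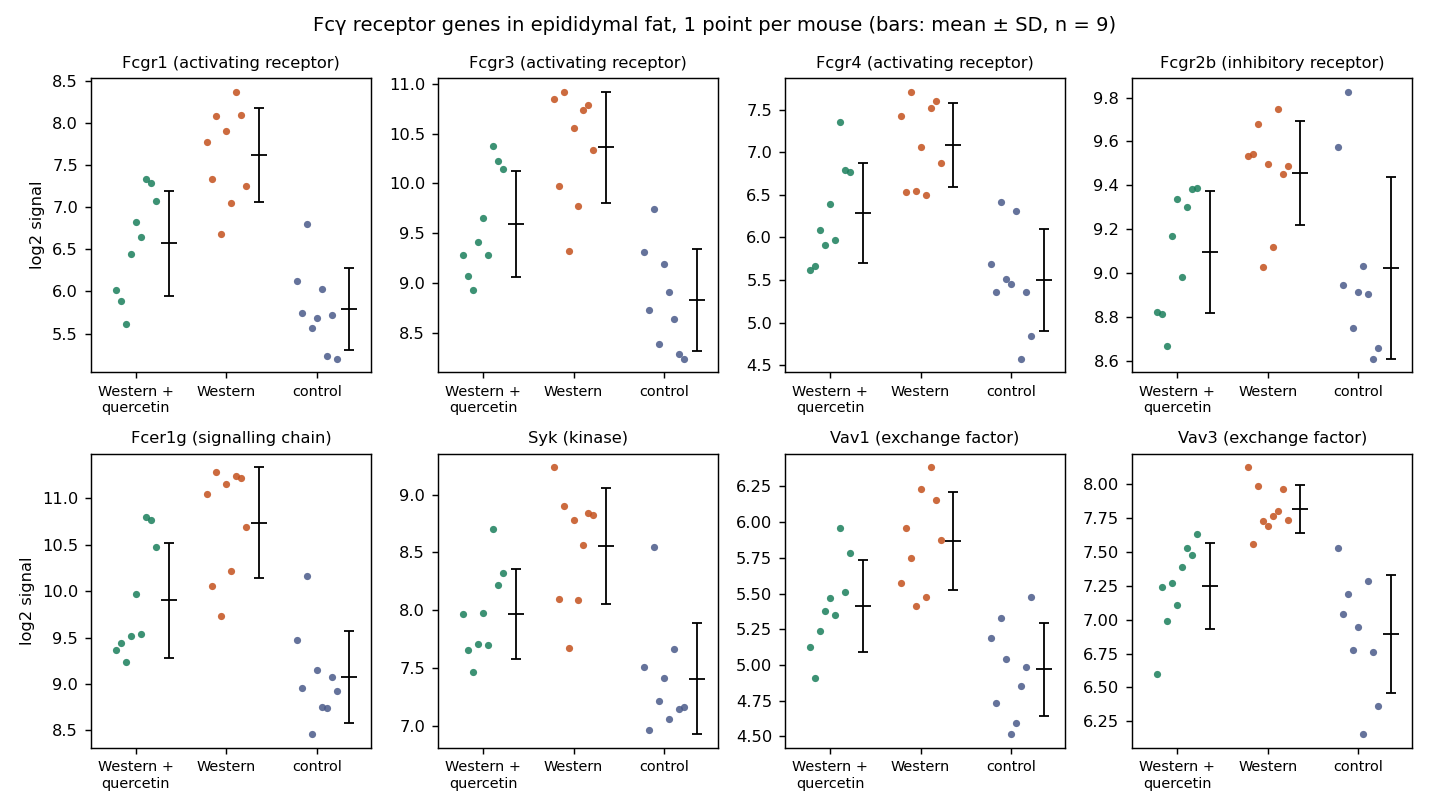
Log2 signal of the 8 measured genes in each mouse (1 point per mouse) on the Western diet containing quercetin, the Western diet and the control diet, with the mean ± SD of the 9 mice as bars. The Western diet means sit above the control means for all 8 genes, without overlap of mice for Fcgr4 and Vav3, the Fcgr2b means differ least, and the quercetin means lie between them, for Fcgr2b close to the control mean.

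Fcgr1 (CD64, gene ID 14129) is the high-affinity receptor for IgG, able to bind single antibody molecules. Its log2 signal had a lowest, median and highest value of 5.61, 6.65 and 7.34 with quercetin, 6.69, 7.77 and 8.37 on the Western diet, and 5.20, 5.72 and 6.81 on the control diet. All Western diet mice but replicate 4 were above every control mouse, and control replicate 3 was the control mouse that reached into their range. The log2 fold change of the Western diet over the control diet was 1.83 (95% confidence interval 1.31 to 2.34, limma adjusted p = 2.79e-05), a 3.55-fold difference.

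Fcgr3 (CD16, gene ID 14131) is the low-affinity receptor that responds to immune complexes. Its lowest, median and highest log2 signals were 8.93, 9.41 and 10.37 with quercetin, 9.32, 10.55 and 10.92 on the Western diet, and 8.24, 8.72 and 9.75 on the control diet. Here too, Western diet replicate 4 alone lay within the control range. The Western diet raised it by a log2 fold change of 1.54 (95% confidence interval 1.05 to 2.02, limma adjusted p = 6.01e-05). Its neighbour Fcgr4, a mouse receptor of intermediate affinity for IgG2 antibodies, had 5.62, 6.09 and 7.36 with quercetin, 6.49, 7.06 and 7.71 on the Western diet, and 4.58, 5.46 and 6.42 on the control diet. All 9 Western diet mice exceeded all 9 control mice for Fcgr4, with a log2 fold change of 1.58 (95% confidence interval 1.06 to 2.10, limma adjusted p = 9.05e-05). Among the 8 genes this separation was also found for Vav3, making 2, and in 0.951% of all genes the Western diet mice lay wholly above the control mice.

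Fcer1g, the ITAM chain that the activating receptors need at the cell surface, followed them. Its lowest, median and highest log2 signals were 9.24, 9.53 and 10.79 with quercetin, 9.73, 11.05 and 11.28 on the Western diet, and 8.46, 8.96 and 10.16 on the control diet. Western diet replicates 4 and 2 were the mice that did not exceed the highest control mouse, replicate 3. The log2 fold change was 1.66 (95% confidence interval 1.14 to 2.18, limma adjusted p = 5.42e-05), or 3.16-fold.

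Fcgr2b (CD32b, gene ID 14130), the inhibitory receptor, changed least of the 8. Its lowest, median and highest log2 signals were 8.67, 9.17 and 9.39 with quercetin, 9.03, 9.50 and 9.75 on the Western diet, and 8.61, 8.91 and 9.83 on the control diet. The diets overlapped widely, and the highest value of all belonged to control replicate 3. This array carried B cell markers. Its macrophage markers were also the highest of the control mice (mean log2 signal 10.12, the next 9.68). The part of either in the value was not tested. The log2 fold change of the Western diet over the control diet was 0.43 (95% confidence interval 0.14 to 0.72, limma adjusted p = 0.0355), or 1.35-fold. This call did not hold without the arrays with other tissue markers (0.42, limma adjusted p = 0.0754). It was lost on leaving out control replicate 2, 4, 5, 7, 8 or 9 or Western diet replicate 1, 2, 3, 5, 7 or 8, with adjusted p-values up to 0.0741, and held without control replicate 3.

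Of the enzymes, Syk, the kinase that docks on the phosphorylated chain, had lowest, median and highest log2 signals of 7.47, 7.97 and 8.70 with quercetin, 7.67, 8.78 and 9.23 on the Western diet, and 6.97, 7.21 and 8.55 on the control diet. Control replicate 3 was far above the other control mice, the next of which had 7.66. The Western diet raised Syk by a log2 fold change of 1.15 (95% confidence interval 0.73 to 1.57, limma adjusted p = 0.000242). Vav1, the exchange factor of blood cells, had 4.91, 5.38 and 5.96 with quercetin, 5.42, 5.88 and 6.38 on the Western diet, and 4.51, 4.99 and 5.47 on the control diet, with Western diet replicate 4 alone inside the control range and a log2 fold change of 0.90 (95% confidence interval 0.55 to 1.25, limma adjusted p = 0.000415). Vav3, a more widely expressed exchange factor, had 6.60, 7.27 and 7.63 with quercetin, 7.56, 7.77 and 8.12 on the Western diet, and 6.15, 6.95 and 7.53 on the control diet. The Western diet mice were close together and all above the control mice for Vav3, with a log2 fold change of 0.92 (95% confidence interval 0.61 to 1.23, limma adjusted p = 0.000108).

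Apart from Fcgr2b, the rises on the Western diet kept their calls when arrays with transcripts of other tissues were left out. Without the arrays with liver markers the log2 fold changes over the control diet were 2.05 for Fcgr1, 1.73 for Fcgr3, 1.77 for Fcgr4 and 1.79 for Fcer1g. Without the arrays with either kind of marker they were 2.14, 1.80, 2.05 and 1.83 in the same order. Western diet replicates 4 and 6, which had the most liver transcripts, were also the lowest or among the 3 lowest Western diet mice for the 3 activating receptors, Fcgr2b, Fcer1g and Syk.

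With quercetin added to the Western diet, the means of the 8 genes were between 1.28-fold and 2.07-fold lower in quercetin mice than in Western diet mice, but none passed the test over all genes. None of the 8 was called lower by limma at an adjusted p under 0.05, a call that 0.0770% of all genes received. Array weights in limma gave 6 calls, with 3.38% of all genes called lower, and the methods' test gave 7, with 2.91%. At an unadjusted p under 0.05, 8 of 8 were lower, against 6.41% of all genes. The log2 fold change was -1.05 for Fcgr1 (95% confidence interval -1.56 to -0.53, limma adjusted p = 0.0593), which was closest to the threshold, and -0.57 for Vav3 (-0.88 to -0.26, adjusted p = 0.0817). Fcer1g had -0.84 (-1.36 to -0.32, adjusted p = 0.117). Fcgr3 had -0.77 (-1.25 to -0.28, adjusted p = 0.127) and Fcgr4 had -0.80 (-1.32 to -0.28, adjusted p = 0.135). Syk and Vav1 had -0.59 and -0.46 with adjusted p-values of 0.169 and 0.198, and Fcgr2b had -0.36 (-0.65 to -0.07, adjusted p = 0.236). The quercetin and Western diet mice overlapped for each of the 8 genes, whereas 0.0550% of all genes were lower in quercetin mice without overlap. For Vav3, 8 of 9 quercetin mice were below all Western diet mice, for Fcgr4 6 were, and for Syk 2 were.

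Whether a gene passed for quercetin depended on the test and on the adjustment over genes. The methods' test, an analysis of variance for unequal variances followed by a post hoc test, called all but Fcgr2b lower, and limma with array weights called all but Fcgr2b and Vav1. The methods' test gave Fcgr3, Fcgr4, Fcer1g, Syk, Vav1 and Vav3 the same p-values with and without adjustment (0.0153 for Fcgr3). Its calls are therefore not at the same threshold as those of limma, whose p-values are adjusted over all genes. With only the arrays of these diets in the fit, or with only genes above the median signal, limma called 2, Fcgr1 and Vav3, where 1.57% and 0.715% of the genes tested were called lower. Vav3 was also called without control replicate 6 (adjusted p = 0.0298). Fcgr1 was called without Western diet replicate 4 (log2 fold change -1.16, limma adjusted p = 0.0353), without quercetin replicate 8 (-1.14, adjusted p = 0.0342), and without control replicate 3 or 6 (-1.05 in both, adjusted p = 0.0435 and 0.0337). Its log2 fold change was -0.85 without the arrays with other tissue markers, -1.31 without those with liver markers and -0.99 without either, and in these fits none of the 8 genes was called.

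**Figure D2:**
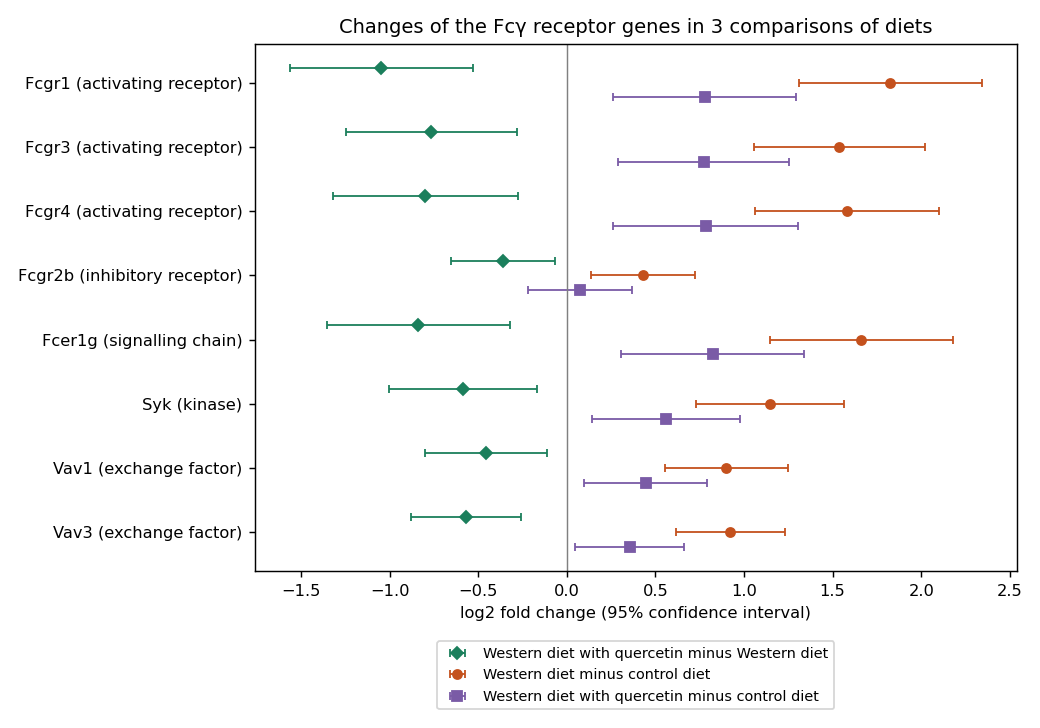
Log2 fold changes with 95% confidence intervals for the Western diet containing quercetin minus the Western diet, the Western diet minus the control diet, and the Western diet containing quercetin minus the control diet. The intervals of the first lie below 0 and those of the second above 0 for all 8 genes, and in the third the interval of Fcgr2b spans 0.

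Set against the control diet directly, the quercetin mice had partly raised signals. Fcgr3 and Fcer1g were called higher, with log2 fold changes of 0.77 (95% confidence interval 0.29 to 1.25, limma adjusted p = 0.0462) and 0.82 (0.31 to 1.34, adjusted p = 0.0466), which makes 2 of 8 where 5.00% of all genes were called higher. Fcgr1 and Fcgr4 had changes of the same size, both 0.78, with adjusted p-values of 0.0589 and 0.0597. Syk, Vav1 and Vav3 had 0.56, 0.44 and 0.35, and Fcgr2b had 0.07 (-0.22 to 0.37, adjusted p = 0.828). Of the quercetin mice, replicates 7, 8 and 9 were the 3 highest for all of the 8 genes but Fcgr2b, and replicates 1, 2 and 3 were the 3 lowest for Fcgr1, Fcgr3, Fcgr2b, Fcer1g and Vav1. Whether these mice shared cages is not given and was not tested. Both calls were lost without the arrays with other tissue markers (0.83 for Fcgr3 and 0.87 for Fcer1g, limma adjusted p = 0.118 and 0.119) and without those with liver markers (0.75 and 0.71, adjusted p = 0.160 and 0.230). The number of calls ran between 0 and 5 as single arrays were left out, with the 5 found without control replicate 3. The comparisons with the Western diet use the same Western diet arrays, and those with the control diet the same control arrays, so they are not independent of each other.

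The activating receptors were then set against the inhibitory receptor of the same array by taking the difference of their log2 signals. This cancels only a shift of equal size in both. A change in the cells of the tissue need not shift both equally, so it is not removed. A change of this difference shows unequal change, and its size within a diet says nothing of the relative amounts, since the probe sets differ. The difference was higher in Western diet mice than in control mice for Fcgr1, Fcgr3, Fcgr4 and Fcer1g, 4 of 4 by limma, where 3.01% of all genes were called higher relative to Fcgr2b and 26.3% lower. For Fcgr1 minus Fcgr2b, the lowest, median and highest values were -3.05, -2.52 and -1.96 with quercetin, -2.34, -1.76 and -1.35 on the Western diet, and -3.67, -3.20 and -2.89 on the control diet. The Western diet mice lay above all control mice here, and the shift was 1.40 (95% confidence interval 1.03 to 1.76, adjusted p = 6.29e-06), a 2.63-fold larger rise than that of Fcgr2b. Fcgr3 minus Fcgr2b had 0.24, 0.32 and 1.07 with quercetin, 0.29, 0.99 and 1.34 on the Western diet, and -0.42, -0.27 and 0.27 on the control diet, a shift of 1.11 on the Western diet (0.80 to 1.41, adjusted p = 9.62e-06). For Fcgr4 the shift was 1.15 (0.73 to 1.58, adjusted p = 0.000564), and for Fcer1g it was 1.23 (0.87 to 1.59, adjusted p = 2.16e-05). Downstream, Syk (0.72, limma adjusted p = 0.00358) and Vav3 (0.49, adjusted p = 0.0246) also rose more than Fcgr2b by the probe set used for it. Vav1 had 0.47 and an adjusted p of 0.0656. For Vav3 this depended on the Fcgr2b probe set. The log2 fold change of Vav3 itself was 0.92, against 0.95 and 0.87 for dimmer expressed Fcgr2b probe sets.

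**Figure D3:**
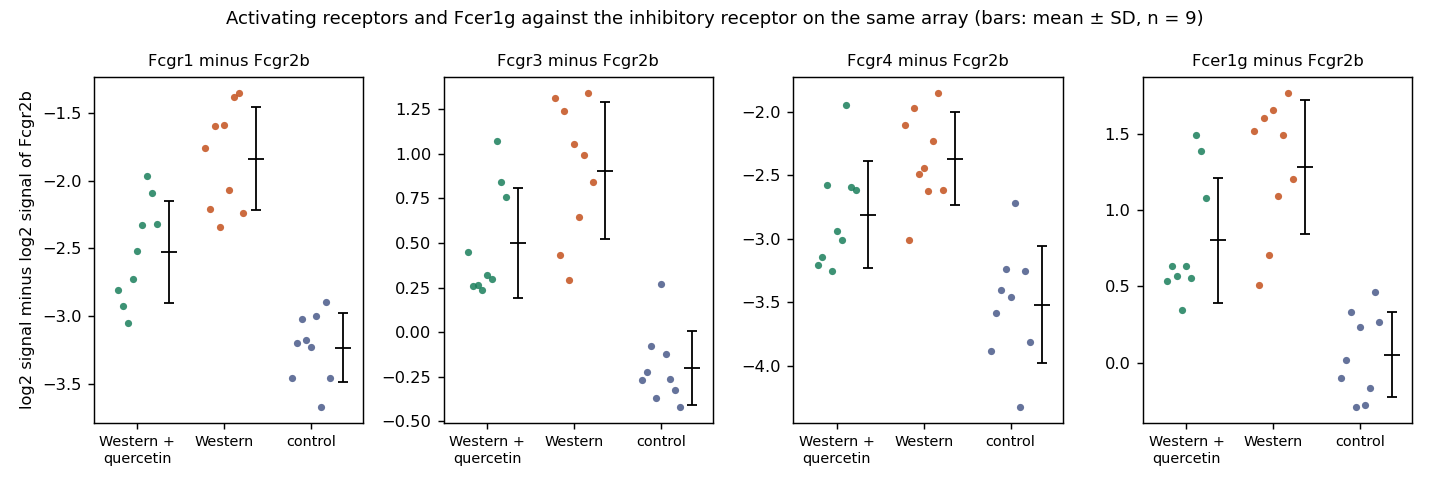
Log2 signal of Fcgr1, Fcgr3, Fcgr4 and Fcer1g minus that of Fcgr2b on the same array, 1 point per mouse, for the Western diet containing quercetin, the Western diet and the control diet, with the mean ± SD of the 9 mice as bars. The Western diet means are above the control means by 1.40, 1.11, 1.15 and 1.23, and the quercetin means lie between them.

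With quercetin the difference from Fcgr2b was smaller than on the Western diet alone in the mean of all 4, with shifts of -0.69 for Fcgr1, -0.41 for Fcgr3, -0.44 for Fcgr4 and -0.48 for Fcer1g. These shifts were not past the threshold (limma adjusted p = 0.0841, 0.0921, 0.142 and 0.0921), and no gene of the whole array was called lower relative to Fcgr2b in this comparison, or 0% of them. Their unadjusted limma p-values were between 0.000512 and 0.0425. The share of all genes with p-values this small relative to Fcgr2b is not given here, so nothing is concluded from them. Without Western diet replicate 4, 3 of the 4 were called (limma adjusted p = 0.0386 for Fcgr1, 0.0405 for Fcgr3 and 0.0453 for Fcer1g), and Fcgr1 alone was called without control replicate 3 or quercetin replicate 8. Against the control diet, the quercetin mice had larger differences for Fcgr1 (0.71, adjusted p = 0.0328), Fcgr3 (0.70, adjusted p = 0.00847) and Fcer1g (0.75, adjusted p = 0.0180), with 1.32% of all genes called higher, while Fcgr4 had 0.71 and an adjusted p of 0.0881. None of these 3 calls held with any other expressed probe set of Fcgr2b, with each gene's probe sets averaged, or without the arrays with other tissue or with liver markers. That of Fcgr1 was also lost without normalization (adjusted p = 0.0688), with a median or trimmed mean scaling (0.0685 in both), with a pseudocount of 16 (0.0626) and in 9 of the 27 fits that left out 1 array (up to 0.0930), and that of Fcer1g without quercetin replicate 7 or 8 (0.0533 and 0.0511).

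The size of the Fcgr2b result depended on the probe set. The array holds 5 single-gene probe sets for Fcgr2b, of which 4 had a mean above the median signal of all probe sets. Of these 4, the brightest, used for the gene, had the smallest log2 fold change of Western diet over control mice, 0.43, whereas the second brightest had 0.63, the third 0.95 and the fourth 0.87. The remaining probe set was close to the floor of the signal, with a mean log2 value of 0.32. With the third in place of the brightest, the shifts relative to Fcgr2b in Western diet mice against control mice were 0.88 for Fcgr1, 0.59 for Fcgr3, 0.64 for Fcgr4 and 0.72 for Fcer1g, and all 4 were still called (limma adjusted p = 0.000844, 0.00616, 0.0185 and 0.00449). Between quercetin and Western diet mice, the shift of Fcgr1 was -0.76 with the second (adjusted p = 0.0312) and -0.32 with the fourth (adjusted p = 0.225), and that of Fcgr3 was -0.04 with the fourth. Fcgr2b and Fcgr3 are closely similar in sequence. Some of these probe sets, among them the brightest, used for Fcgr2b, are marked by the manufacturer as able to match more than 1 transcript. Cross-hybridization was not tested.

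Over all 8 genes there were 19 single-gene probe sets. In the test over probe sets, 17 of them were called higher in Western diet mice than in control mice and 0 lower, where 9.24% of all single-gene probe sets were called higher, including all 14 above the median signal of all probe sets. Fcgr1's dimmer probe set had a log2 fold change of 0.92, against 1.83 for the brighter and 0.43 to 0.95 for expressed Fcgr2b probe sets. It also had a smaller change between quercetin and Western diet mice, -0.30 (limma adjusted p = 0.471), and was called higher in quercetin mice than in control mice (0.62, adjusted p = 0.0277). The second brightest probe set of Vav3 was also called higher in quercetin mice than in control mice (0.74, adjusted p = 0.00356), whereas the brightest, used for the gene, had 0.35 and was not called, and the mean of all Vav3 probe sets had 0.51 (adjusted p = 0.0128). All 4 probe sets of Syk, both of Vav1 and all 3 of Vav3 had positive changes on the Western diet.

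**Figure D4:**
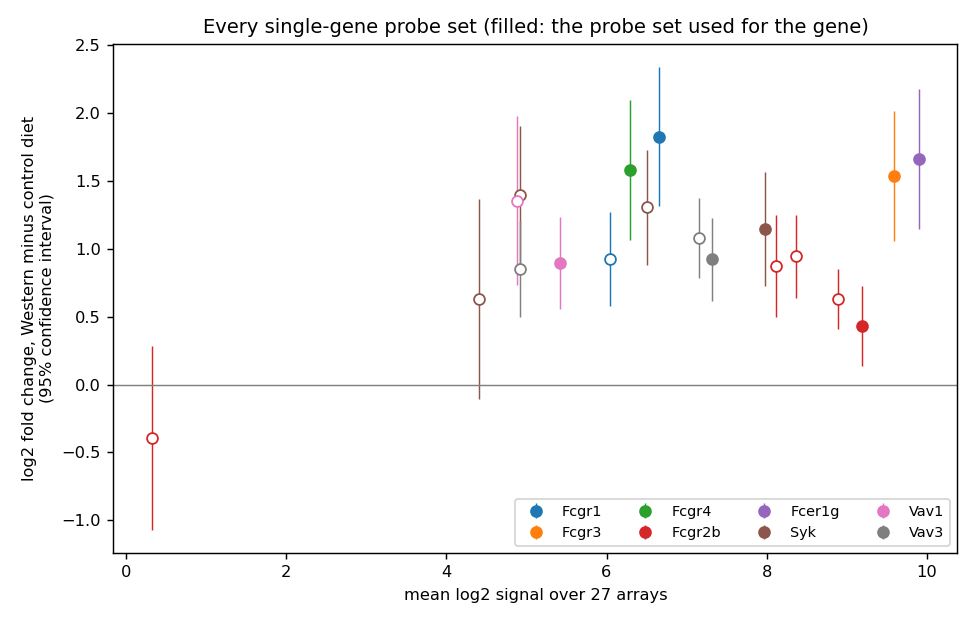
Log2 fold change (Western diet minus control diet, with 95% confidence interval) against the mean log2 signal over the 27 arrays for the 19 single-gene probe sets of the 8 genes, filled where the probe set stands for its gene. The 4 expressed Fcgr2b probe sets lie between 0.43 and 0.95, below the main probe sets of Fcgr1, Fcgr3, Fcgr4 and Fcer1g. The dimmer Fcgr1 probe set, at 0.92, lies within this range.

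Markers of macrophages moved with the same diets. Of the 12 markers, all but Mertk, which makes 11, were called higher in Western diet mice than in control mice, against 11.3% of all genes. Between quercetin and Western diet mice 0 were called, where 0.0770% of all genes were called lower. All 12 markers had negative log2 fold changes there, with a median of -0.72. In quercetin mice 3 were called higher than in control mice, against 5.00% of all genes. The mean log2 signal of the list ran from 9.41 to 10.70 with quercetin, from 9.93 to 11.19 on the Western diet and from 8.91 to 10.12 on the control diet. No marker of any list was at the floor on all arrays. The lists of other cells that can carry Fcγ receptors had mean log2 signals between 3.95 and 5.97, and 2 of 8 neutrophil, 1 of 5 NK cell, 1 of 6 dendritic cell, 1 of 9 B cell and 0 of 8 mast cell markers were called higher in Western diet mice than in control mice, where 11.3% of all genes were. The share of the receptor changes that goes with these cells was not tested beyond the comparison that follows.

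When the mean of the macrophage markers was subtracted on each array, the differences between diets became small for the activating receptors and turned negative for Fcgr2b. On the Western diet relative to the control diet, Fcgr1 had 0.47 (95% confidence interval 0.12 to 0.81, limma adjusted p = 0.0123) and Fcer1g 0.30 (0.02 to 0.58, adjusted p = 0.0408), both called higher, where 0.506% of all genes were. Fcgr3 and Fcgr4 had 0.18 and 0.22 with adjusted p-values of 0.148 and 0.293. Fcgr2b had -0.93 (-1.22 to -0.63, adjusted p = 3.07e-06) and Vav3 -0.44 (adjusted p = 0.0410), both called lower, but 85.4% of all genes were lower relative to these markers. Syk and Vav1 had -0.21 and -0.46 with adjusted p-values of 0.187 and 0.0666. The signs for the activating receptors and Fcer1g turned negative with Adgre1 (F4/80) alone as the marker, and the 2 higher calls were lost without the arrays with liver markers. The difference of Fcgr2b was smaller with its other expressed probe sets, -0.73 with the second brightest (adjusted p = 0.000364), -0.41 with the third (adjusted p = 0.0378) and -0.49 with the fourth (adjusted p = 0.0210), and in the alternatives run it lay between -1.43 and -0.41. With quercetin, no gene of the set was called in either direction relative to the Western diet alone (0.0660% of all genes were called lower and 53.2% higher). Fcgr1 had -0.37 (limma adjusted p = 0.0670) and Fcgr2b 0.32 (adjusted p = 0.0574) in that comparison. Against control mice, quercetin mice had 1 call, Fcgr2b, with -0.60 (adjusted p = 0.0122), where 42.1% of all genes were called lower. With the second brightest probe set of Fcgr2b, and with the third, this call was lost (-0.33 and -0.29, adjusted p = 0.108 and 0.182).

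Beyond the receptors, 68 of 74 further genes of the pathway were measured. In Western diet mice 31 of them were higher and 2 lower than in control mice, where 11.3% of all genes were higher and 6.44% lower, with a median log2 fold change of 0.27, against 1.34 for the 8 genes above. In quercetin mice 0 were higher and 1 was lower than in Western diet mice, with a median of -0.17, against -0.68 for the 8 genes and 0.02 over all genes. Against control mice, 3 were higher and 1 was lower in quercetin mice, where 5.00% of all genes were higher and 1.65% lower.

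Among the 8 measured Src family kinases and their regulators, 4 were higher in Western diet mice than in control mice. Csk, which restrains these kinases, rose by 0.74 (limma adjusted p = 0.000221), Ptprc (CD45), the phosphatase that releases them, by 1.15 (adjusted p = 0.00119), and Ptpn22, which opposes them, by 1.10 (adjusted p = 0.00169) on the log2 scale. Yes1, a kinase of many tissues, had -0.17 (adjusted p = 0.351). Of the 9 measured phosphatases, adaptors and ligases that act as brakes, 4 were higher and 0 lower, among them Inpp5d (SHIP1), the phosphatase recruited by Fcgr2b, by 0.97 (adjusted p = 0.00126), Dok1 by 0.76 (adjusted p = 0.0038) and Dok2 by 0.94 (adjusted p = 0.00467). Cblb, a ubiquitin ligase, had -0.15 (adjusted p = 0.226). None of either group was called for quercetin mice against Western diet mice, where Inpp5d had -0.65 (adjusted p = 0.131), Csk -0.38 (adjusted p = 0.166), Ptpn22 -0.60 (adjusted p = 0.23) and Dok2 -0.56 (adjusted p = 0.251).

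Of the 24 measured adaptors and lipid enzymes, 12 were higher and 1 was lower in Western diet mice than in control mice. Lat2, an adaptor of myeloid cells and B cells, rose by 2.12 (limma adjusted p = 3.92e-05), Pik3r5, a regulatory subunit of PI3Kγ, by 1.60 (adjusted p = 1.91e-05) and Grb2, a general adaptor, by 0.61 (adjusted p = 5.51e-05) on the log2 scale. Pik3r1, the regulatory subunit that most tissues use, was lower, with a log2 fold change of -0.74 (adjusted p = 0.000856). Between quercetin and Western diet mice, Lat2 had -1.29 (adjusted p = 0.0587) and Pik3cd, a catalytic subunit of PI3K in leukocytes, 0.39 (adjusted p = 0.103), neither of them past the threshold. Pik3r1 was also lower in quercetin mice than in control mice (-0.73, adjusted p = 0.00431), while Grb2, Pik3r5 and Tyrobp, another ITAM adaptor, were higher (0.42, 0.97 and 1.05, adjusted p = 0.00814, 0.00639 and 0.0275).

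Of the 27 measured GTPase and actin genes, 11 were higher and 1 was lower in Western diet mice than in control mice. Dock2, an exchange factor for Rac in blood cells, rose by 1.50 (limma adjusted p = 0.000309), Was, which starts actin branching, by 1.22 (adjusted p = 0.000409) and Wipf1, its partner protein, by 0.69 (adjusted p = 8.21e-05) on the log2 scale. Marcksl1, an actin-binding protein, was lower, with -0.73 (adjusted p = 0.0103). Wipf1 was the 1 gene of the 68 called lower in quercetin mice than in Western diet mice (log2 fold change -0.55, adjusted p = 0.031). Arpc2, a subunit of the complex that branches actin, had -0.25 in the same comparison (adjusted p = 0.106).

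**Figure D5:**
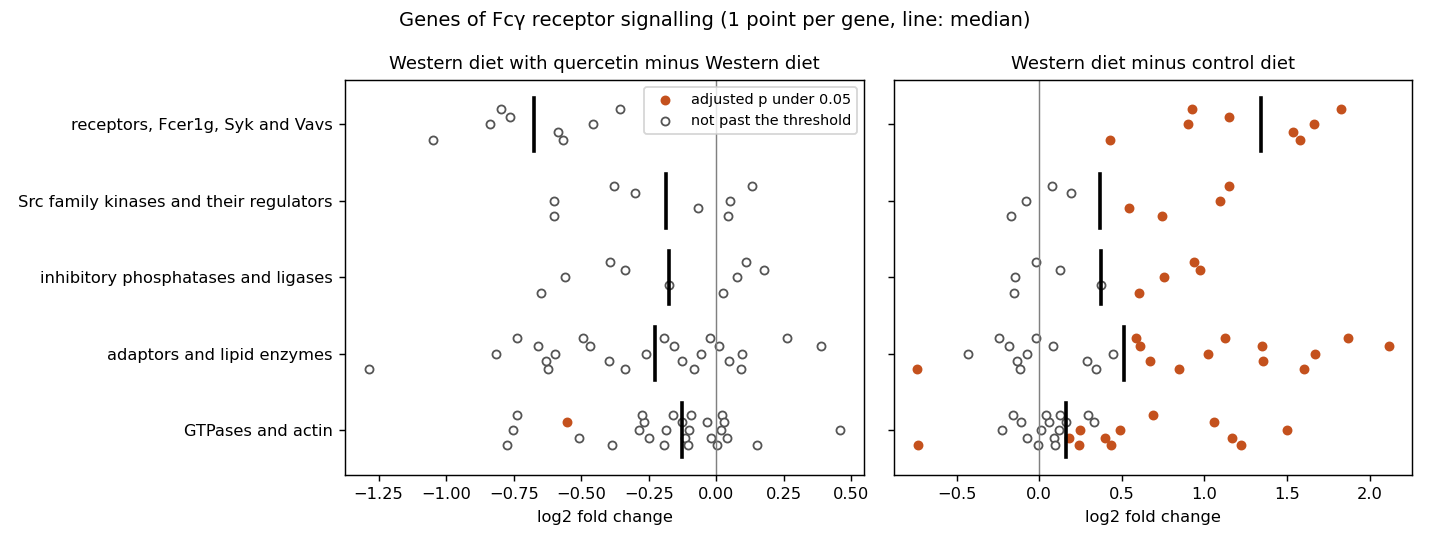
Log2 fold changes of the 8 receptor and proximal signalling genes and of the 68 further pathway genes in 4 groups, for the Western diet containing quercetin minus the Western diet and Western diet minus control diet. Filled points passed an adjusted p under 0.05 and lines are medians, which for the 8 genes are -0.68 and 1.34.

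Of 10 other Fc receptors measured, 1 was higher in Western diet mice than in control mice, where 11.3% of all genes were: Fcrls, a receptor-like gene of macrophages, with a log2 fold change of 0.85 (limma adjusted p = 0.00145). Ms4a2, the β chain of the mast cell receptor for IgE, which also uses Fcer1g, had mean log2 signals of 1.56 in quercetin mice, 2.78 in Western diet mice and 2.01 in control mice, near the floor of the signal, and was not called in any comparison. In Western diet mice against control mice, Fcamr, a receptor for IgM and IgA, had -1.27. Pigr, which carries these antibodies across epithelia, had 1.22, and neither was called (limma adjusted p = 0.112 and 0.276). Fcamr was also near the floor, with means of 2.45 in quercetin, 1.65 in Western diet and 2.91 in control mice. Pigr varied widely between mice (SD 1.67, 1.89 and 1.41 in that order). Of 11 immunoglobulin chain genes, 4 were measured, and of these only Ighg3 encodes a chain of IgG, the antibody that Fcγ receptors bind. Ighg3 had a log2 fold change of -0.64 in Western diet mice against control mice (limma adjusted p = 0.467) and was not called in any comparison. The other chains measured belong to IgM and IgA. Ighm, the heavy chain of IgM, was lower in Western diet mice than in control mice (-0.63, adjusted p = 0.0155). Ighm and Jchain, which links IgM and IgA into polymers, were lower in quercetin mice than in control mice (-1.15 and -2.07, adjusted p = 0.000315 and 0.0494). Igha, the heavy chain of IgA, had -0.83 in Western diet mice against control mice (adjusted p = 0.108). None of the 4 chains was called between quercetin and Western diet mice. Control replicate 3 carried B cell markers, and its part in these values was not tested.

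Mice on the same diet differed along the same line for most of the genes. After centring each diet on its mean, the correlations between the 28 pairs of the 8 genes over the 27 arrays ran from 0.23 to 0.92 with a median of 0.66, and the points share array and normalization. Among 9090 genes above the median signal, those most like Fcgr1 were Cd68, Lcp1, Mpeg1, Ms4a7 and Nckap1l (r between 0.92 and 0.94). For Fcer1g they were Atf3, Cd300lb, Lipa, Lcp1 and Spi1 (0.95 to 0.96), and for Fcgr2b they were Clec4a3, Clec4b1, Ptprc, Alox5ap and Irf8 (0.91 to 0.92). Only Lcp1 stood on more than 1 of these lists.

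From mouse to mouse within each diet, the inhibitory receptor was positively correlated with the activating receptors, though by rank not past the threshold on the Western diet. Over the 9 relations computed (Fcgr1, Fcgr3 and Fcgr4 in each diet, n = 9 mice), Pearson's r with Fcgr2b lay between 0.64 and 0.93, and Benjamini-Hochberg adjusted p-values of exact two-sided permutation tests were under 0.05 in 8, the exception being Fcgr4 on the control diet (r = 0.64, adjusted p = 0.0572). For Fcgr1 the values were r = 0.93 with quercetin (Spearman's rho = 0.87), 0.84 on the Western diet (rho = 0.68) and 0.86 on the control diet (rho = 0.82), with raw exact permutation p-values for r of 0.000446, 0.00199 and 0.00281 and adjusted ones of 0.00201, 0.00505 and 0.00505. For rho, 4 of the 9 adjusted exact permutation p-values were under 0.05 and none of these was on the Western diet. Without the 2 mice farthest from the median on the Fcgr2b axis, r for Fcgr1, Fcgr3 and Fcgr4 was 0.85, 0.81 and 0.80 with quercetin, 0.55, 0.32 and 0.40 on the Western diet, and 0.46, 0.84 and 0.42 on the control diet. The values of r fell most on the Western diet, and for Fcgr1 and Fcgr4 on the control diet. Leaving out these mice narrows the range of Fcgr2b, which lowers r in itself. How far the relations rest on those mice can therefore not be told. The permutation tests also take the 9 mice of a diet as independent, and their cages are not given. Where cage mates are alike, the permutation p-values are too small.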

How the data were processed

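Total RNA of 27 mice was hybridised to Affymetrix Mouse Genome 430 2.0 arrays, 1 per mouse. The authors computed linear probe set intensities with Microarray Suite and GeneSpring, and the deposited intensities were not at a common level, with array medians between 25.2 and 54.4. Depth does not apply to arrays, and their number (9 per diet) limits the precision. Detection calls were not used here.

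From the 45101 probe sets, 64 controls were removed. Intensities were quantile normalized, set to at least 1 and taken to log2. Probe sets were named from the platform annotation, and 34958 had 1 gene, while 932 had several genes and were not used. Each of 18193 genes was represented by its single-gene probe set of highest mean. Diets were compared with limma 3.58.1 in R 4.3.3 (lmFit and eBayes with trend over all 27 arrays, adjusted over all genes, threshold 0.05). Differences from Fcgr2b and from the mean of 12 macrophage markers were fitted in the same way. Exact permutation tests (two-sided) were used for correlations over mice.

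The genes, the marker and pathway lists and the tests were chosen with earlier results of these data known. Named pathway genes are, per list, the 3 of smallest p between Western diet and control mice, the 2 of smallest p between quercetin and Western diet mice and the strongest opposite to the list; Tyrobp and the genes called between quercetin and control mice were named after their values were seen. The scripts were tested on simulated data. Promoters are from RefSeq on GRCm38.p6. Replicate numbers in the labels did not pair the mice: of 27 pairs of the same number, 10 correlated above 0.1 in their deviations from the diet means (range -0.51 to 0.37).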

Additional observations from a re-analysis of the deposited data

Results flagged for a closer look

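Syk in control replicate 3 had a log2 signal of 8.55, above the next control mouse at 7.66, a gap of 0.558 of the range of the 9 control mice. This array also carried B cell markers and had the highest macrophage markers of the control mice. The part of either in the value was not tested. Fcgr3 minus Fcgr2b in control replicate 5 was 0.27, above the next control mouse at -0.08, a gap of 0.508 of the range. Both gaps were above Dixon's 95% critical value. Of 39 groups tested, 2 exceeded it, and chance alone gives about 1 in 20.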

How the results depend on the processing

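The count of genes higher in Western diet mice than in control mice, 8, stayed between 6 and 8 in all alternatives, the 6 where genes above the median signal were tested, which leaves 6 of the 8. The calls lost in other alternatives were those of Fcgr2b. Lower in quercetin than in Western diet mice were 0 genes, but 1 with a pseudocount of 16, 2 with genes above the median signal, 2 with only the diets compared in the fit, 6 with array weights, and 7 with the methods' test, with or without adjustment. Higher in quercetin than in control mice were 2 genes, but 0 without normalization, with a median or trimmed mean scaling, with a floor of 32, with a pseudocount of 16, without the trend, with only the diets compared, and without the arrays with other tissue or with liver markers, 1 without either kind, and 6 with the methods' test, with or without adjustment. The genes called changed too: the mean of all probe sets called Fcgr1 and Vav3 (adjusted p = 0.0298 and 0.0128) and not Fcgr3 and Fcer1g (0.0557 and 0.0564), array weights added Fcgr1 and Fcgr4 (0.0379 and 0.0306) and lost Fcer1g (0.0534), genes above the median signal added Fcgr1 (0.0361), and the 1 call without either kind of array was Fcgr1 (0.0344). Relative to Fcgr2b, the 4 calls between Western diet and control mice held throughout. The 3 between quercetin and control mice became 0 with the mean of all probe sets, with each of 3 other Fcgr2b probe sets, and without the arrays with other tissue markers, liver markers or either, and the 0 between quercetin and Western diet mice became 1 with the second brightest Fcgr2b probe set. The Fcgr1 call between quercetin and control mice was also lost without normalization, with a median or trimmed mean scaling, with a pseudocount of 16 (adjusted p = 0.0626 to 0.0688) and in 9 of 27 fits without 1 array. The sets of arrays with liver markers and the Fcgr2b probe sets were chosen after seeing the data. The causes were not tested. Here and below, the share of all genes called is not given for most alternatives. The counts therefore show how the calls depend on the processing and nothing more.

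Relative to the macrophage markers, the 2 genes called higher in Western diet than in control mice became 1 with a pseudocount of 16, with the mean of all probe sets and without the arrays with other tissue markers, and 0 without the arrays with liver markers, without either kind and with Adgre1 alone. The 2 called lower became 1 with the mean of all probe sets and 5 with Adgre1 alone. The 1 called lower in quercetin than in control mice became 0 without the arrays with other tissue markers, liver markers or either and with the second brightest Fcgr2b probe set or the third, and 6 with Adgre1 alone. With the fourth brightest, Fcgr2b between quercetin and Western diet mice turned to -0.040. The sign turned with a pseudocount of 16 for Fcgr4 between Western diet and control mice (-0.020) and for Fcgr1 and Fcgr4 between quercetin and control mice (-0.0098 and -0.040), and with the mean of all probe sets for Syk and Vav1 between quercetin and Western diet mice (-0.048 and -0.014). With Adgre1 alone it turned for Fcgr1, Fcgr3, Fcgr4 and Fcer1g between Western diet and control mice (-0.034, -0.32, -0.28 and -0.20) and between quercetin and control mice (-0.39, -0.40, -0.39 and -0.35). For Fcgr4 between quercetin and control mice it ran from -0.0018 to 0.22 with single arrays left out.

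With single arrays left out, the counts ran from 7 to 8 (Western diet over control), 0 to 2 (quercetin under Western diet, with 1 or 2 without control replicate 3 or 6, Western diet replicate 4 or quercetin replicate 8) and 0 to 5 (quercetin over control). Relative to Fcgr2b they ran from 4 to 4, 0 to 3 and 1 to 4 in the same order, the 1 without quercetin replicate 7 or 8. Relative to the macrophage markers they ran from 1 to 2 higher and 1 to 3 lower (Western diet against control), from 0 to 1 higher (quercetin against Western diet) and from 1 to 1 lower (quercetin against control).

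With the replicate number as a block, although the numbers did not pair the mice, 7 genes were higher in Western diet than in control mice, 0 lower in quercetin than in Western diet mice and 2 higher in quercetin than in control mice. Relative to Fcgr2b the block gave 4, 0 and 2, and relative to the macrophage markers 1 higher and 1 lower (Western diet against control) and 1 lower (quercetin against control). Of the 27 arrays, 3 correlated best with their own number.

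No scaling moved the median log2 fold change of all genes by 0.1. Of all genes called between Western diet and control mice, 63.6% were higher with quantile normalization and 80.0% with median scaling, and between quercetin and control mice 75.1%, against 87.6% without normalization. Between quercetin and Western diet mice the split was 46 higher and 14 lower, 3 and 0 without normalization, 0 and 3 with median scaling and 30 and 15 with a trimmed mean.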
